A study of Mus musculus with 6 samples.

Results

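Glycolysis and the hypoxia response were examined as a set of 39 mouse genes: 4 glucose and lactate transporters, 17 glycolytic enzymes, 3 regulators of glycolytic flux, 5 oxygen sensors and hypoxia-inducible factor (HIF) subunits, and 10 other hypoxia targets. The genes were chosen by name, with earlier results of these data known. Of the 39, 35 had a probe set with 1 gene symbol, out of 18193 such genes on the array, and all 35 had enough signal to be tested, as did 12740 genes in all. For each gene the probe set with the highest mean over the 6 arrays was used. No probe set was listed here for Gpi1 or Eno1, the probe sets for Bnip3l were shared with its pseudogene Bnip3l-ps, and Gapdh had no unshared probe set other than the array's control probe sets. Ero1l was found under its current symbol, Ero1a.

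R1, an established line of mouse embryonic stem cells, was used throughout, and every array came from cells infected with a lentivirus, sorted for GFP and expressing a short hairpin RNA (shRNA). In 3 control samples the shRNA was against luciferase, and in 3 samples it was shRNA1 against KIAA1718, the histone H3 demethylase encoded by Kdm7a. Total RNA was hybridized to Affymetrix Mouse Genome 430 2.0 arrays. Because only 1 hairpin was used per group, what its sequence or its infected population does cannot be told apart from what targeting KIAA1718 does. Separate cultures are not named for the replicates, and p-values therefore cover the spread among these 6 samples alone, which may be technical.

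Glycolysis splits glucose into pyruvate, which is reduced to lactate or passed to the mitochondria. Embryonic stem cells are known for a high rate of glycolysis even when oxygen is present. When oxygen is scarce, prolyl hydroxylases of the Egln family no longer mark the HIF alpha subunits for degradation, and HIF, paired with Arnt, activates many genes of glycolysis together with genes of vessel growth, mitophagy and pH control. The DNA core that HIF recognizes reads ACGTG or GCGTG.

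The median signal per array ran from 9.58 to 13.3 before normalization, and correlations between arrays were 0.983 to 0.988 within groups and 0.976 to 0.985 between them. The targeted gene Kdm7a gave a normalized signal of 38.2 ± 1.11 in controls and 31.8 ± 9.69 with the KIAA1718 shRNA (SD, n = 3), a log2 difference of -0.20 (limma adjusted p = 0.533). Its other 2 tested probe sets differed by -0.22, with groups narrowly apart, and by -0.16, with overlap. All 3 lay below 0 and none passed, so Kdm7a gave no firm check of the labels. All 10 embryonic stem cell markers were tested; Fgf4 and Utf1 fell by 0.72 and 0.44 on the log2 scale, and the other 8, Pou5f1 among them at a signal of 1140 in controls, did not pass. The mean of the stem cell list was 10.001 to 10.084 (log2) in controls and 9.76 to 9.87 with the KIAA1718 shRNA, with no overlap, and 1 of the 10 differences lay above 0. Of 19 fibroblast markers tested 1 was lower, Pdgfra, and all 19 differences were below 0; on the log2 scale the controls had list means of 7.75, 8.51 and 8.43 and the KIAA1718 shRNA 7.62, 7.86 and 7.94 (replicates 1, 2 and 3). The part of these markers in the results was tested only by a fit with their mean as a covariate. The control signals of these 19, of 20 listed, ran from 18.9 for Lum to 2478 for Vim; all 19 had passed the filter on dim probe sets. Of 12 primitive endoderm markers 4 were lower (Sox7, Pdgfra, Dab2 and Lama1), and the list's mean was 6.20 to 6.38 in controls and 5.90 to 5.91 with the KIAA1718 shRNA. Pdgfra is on both this list and that of the fibroblast markers, with the same probe set. Among all genes tested 2.18% passed as lower and 2.67% as higher. In such bulk samples fewer cells of a type and less RNA per cell cannot be told apart.

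The glycolysis and hypoxia genes shared no direction, and few of them passed the threshold, as was so among all genes. Of the 35 tested, 1 rose, the aldolase gene Aldoc, none fell, and 34 did not pass the threshold (limma, adjusted p under 0.05 over all probe sets); among all genes tested 4.85% passed, 2.67% higher and 2.18% lower. With replicate number as a block 4 of the 35 passed, 3 higher (Aldoc, Slc16a3 and Ankrd37) and 1 lower (Epas1), beside 7.85% of all genes, 4.07% higher and 3.78% lower. The median difference of the 35 was 0.021 on the log2(signal + 16) scale, against 0.00106 for all genes, and 19 of the 35 lay above 0. All but 1 of the 35 95% intervals, that of the lactate exporter gene Slc16a3, lay within 1 of 0 in either direction on that scale, and 25 lay within 0.5. The scale compresses the change of dim genes: with a pseudocount of 1 in place of 16, Eno2 differed by 0.37 ± 0.58 (SE) and Car9 by -0.42 ± 0.34. Differences beyond 0.3 were found in 5 members (14.3%), against 20.7% of all genes, and differences beyond 0.5 in 2 members (5.71%), against 5.78%. The groups did not overlap for 11 of the 35, 6 higher and 5 lower, where 27.9% of all genes had groups that did not overlap. The 95% interval excluded 0 for 9 of the 35, and for 22% of all genes.

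**Figure D1:**
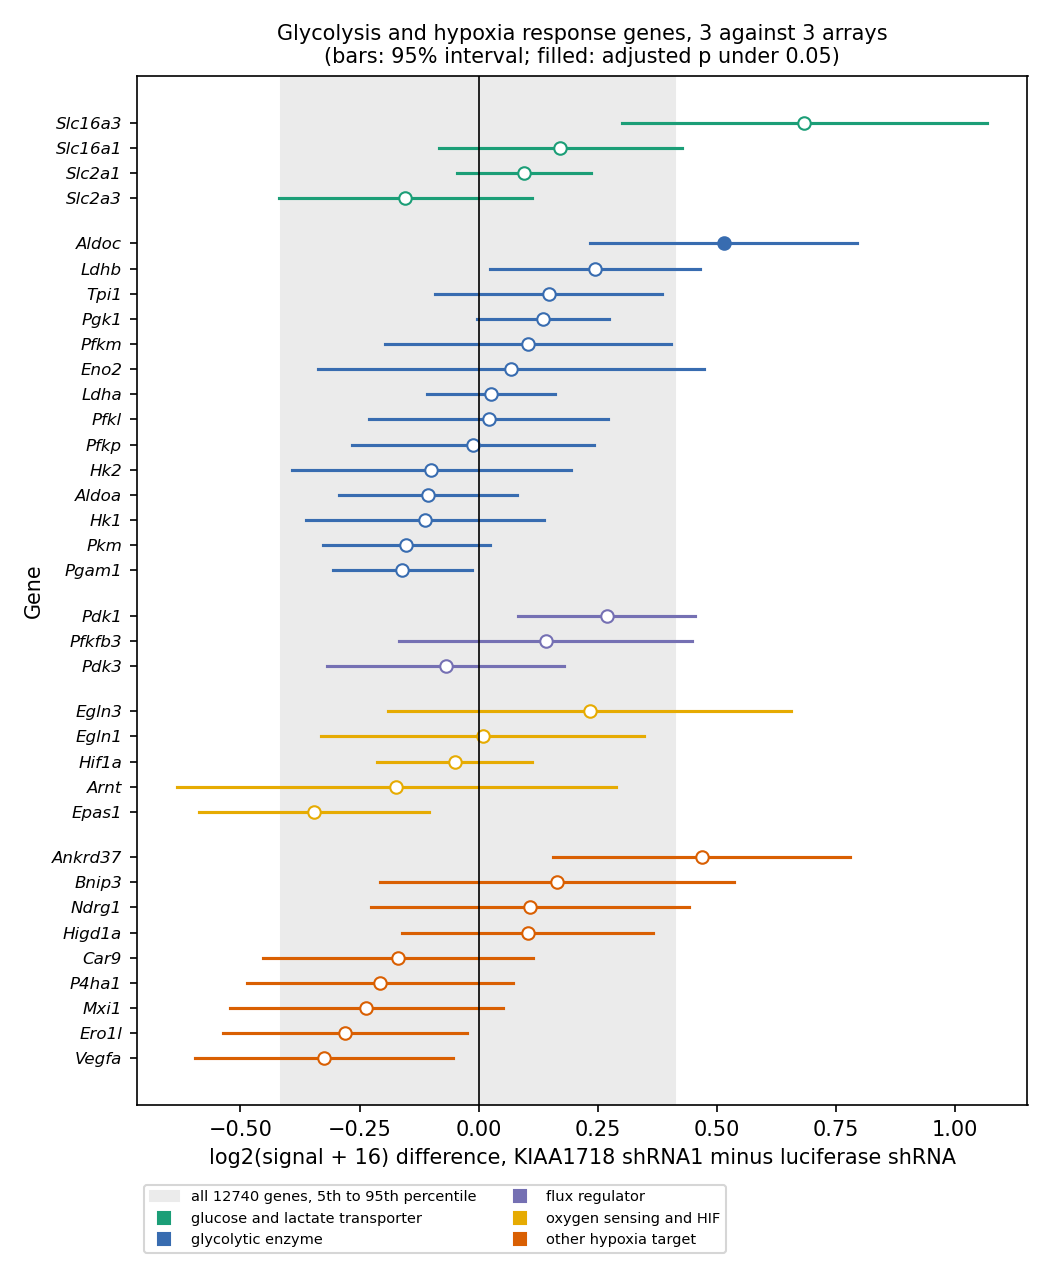
Difference between the KIAA1718 shRNA and the luciferase shRNA for each of 35 genes (x axis, log2(signal + 16); y axis, genes ordered within their role). Points are limma estimates over 3 against 3 arrays, bars their 95% intervals and a filled point an adjusted p under 0.05; the grey band spans the 5th to 95th percentile of all 12740 genes, -0.41 to 0.41. Aldoc is the only filled point, and Slc16a3, Aldoc and Ankrd37 are the only points outside the band.

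The sequences before the start sites of the genes with the largest increases are shown first, with that of Ldha, a glycolytic gene rich in the HIF core that differed by 0.026, for contrast. Each is the 250 bases before a start in RefSeq (GRCm38.p6), printed 5′ to 3′ on the gene's strand, with ACGTG and GCGTG on either strand in capitals; where both strands match at the palindrome CACGTG, or where matches overlap, the capitals run together. Slc16a3 lies at chr11:120948817-120949066 (plus strand), the starts of Aldoc at chr11:78322823-78323072 and chr11:78323948-78324197 (plus strand), Ankrd37 at chr8:45999851-46000100 (minus strand) and Ldha at chr7:46845554-46845803 (plus strand).
Slc16a3: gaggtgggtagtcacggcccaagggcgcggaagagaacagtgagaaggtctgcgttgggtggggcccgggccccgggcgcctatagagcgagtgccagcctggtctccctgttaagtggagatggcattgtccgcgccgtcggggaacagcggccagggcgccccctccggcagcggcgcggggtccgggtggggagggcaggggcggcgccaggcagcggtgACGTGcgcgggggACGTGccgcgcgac
Aldoc, first start: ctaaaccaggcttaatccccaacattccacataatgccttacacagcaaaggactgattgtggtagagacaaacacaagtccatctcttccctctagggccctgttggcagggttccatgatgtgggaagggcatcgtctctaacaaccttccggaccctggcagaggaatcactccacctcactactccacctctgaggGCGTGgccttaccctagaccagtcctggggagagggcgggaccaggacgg
Aldoc, second start: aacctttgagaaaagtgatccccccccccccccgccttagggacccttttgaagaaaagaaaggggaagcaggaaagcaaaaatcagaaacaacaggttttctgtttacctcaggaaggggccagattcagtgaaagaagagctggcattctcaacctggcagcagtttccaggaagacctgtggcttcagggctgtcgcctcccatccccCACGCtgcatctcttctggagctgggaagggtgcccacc
Ankrd37: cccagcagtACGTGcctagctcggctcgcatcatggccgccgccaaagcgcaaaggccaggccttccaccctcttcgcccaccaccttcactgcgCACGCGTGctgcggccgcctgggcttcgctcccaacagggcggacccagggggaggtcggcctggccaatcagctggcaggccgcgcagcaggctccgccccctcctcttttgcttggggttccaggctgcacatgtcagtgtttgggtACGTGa
Ldha: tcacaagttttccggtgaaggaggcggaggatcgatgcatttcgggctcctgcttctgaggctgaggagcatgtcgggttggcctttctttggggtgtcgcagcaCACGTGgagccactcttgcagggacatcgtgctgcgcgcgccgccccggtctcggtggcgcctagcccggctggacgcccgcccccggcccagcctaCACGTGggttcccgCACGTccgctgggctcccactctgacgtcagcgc
Slc16a3 has 2 matches, whose last bases lie 23 and 10 bases before the start. Each Aldoc window has 1. Ankrd37 has 4 matches, 2 of which overlap, and the nearest ends 2 bases before the start. The Ldha window shown has 5, of which 4 form a pair of CACGTG palindromes. Ldha has another start, not printed, whose window has 1 match.

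Across the set, 41 of 51 windows (80.4%) held ACGTG or GCGTG, against 38.6% of 32851 windows of all genes. The windows of the set were also richer in CG, with a median of 14 CG dinucleotides against 6, and both motifs contain CG. CACGTG was in 6 of the 51 windows (11.8%) and in 6.02% of all. A match is not a site. The 30 tested genes with a match in a window ran from -0.32 to 0.68 with a median of 0.015 (log2 difference), and the pair without one, Eno2 and Tpi1, differed by 0.07 and 0.15.

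Among the transporters, the largest difference in the whole set was in Slc16a3, which encodes MCT4, the exporter of lactate from highly glycolytic cells. Its normalized signal was 48.0, 44.6 and 31.3 on control replicates 1, 2 and 3 and 93.7, 55.8 and 80.6 with the KIAA1718 shRNA. The groups did not overlap, though replicate 2 of the KIAA1718 shRNA lay close to the controls. The log2 difference was 0.68 ± 0.18 (SE), with a 95% interval of 0.30 to 1.07, and it missed the threshold narrowly (limma adjusted p = 0.0549). With replicate number as a block it passed (adjusted p = 0.0254), and it passed in 5 of 16 alternative settings in all. Without 1 array the difference ran from 0.55 to 0.86; it passed only without replicate 2 of the KIAA1718 shRNA (adjusted p = 0.0352), and the other 5 such fits had adjusted p-values of 0.0579 to 0.212. With the fibroblast marker mean as a covariate it was 0.51 (adjusted p = 0.316).

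The other 3 transporters differed little. Slc16a1, which encodes the related transporter MCT1, had signals of 710.0, 594 and 663 in controls and 763, 617 and 856 with the KIAA1718 shRNA, with overlapping groups (log2 difference 0.17, adjusted p = 0.475). The glucose transporter gene Slc2a1 differed by 0.09, with an interval of -0.05 to 0.24. Slc2a3, the second glucose transporter gene, differed by -0.15, and its spread with the KIAA1718 shRNA was wide: 2639, 1709 and 2155, against 2276 to 2546 in controls.

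Among the enzymes, Aldoc was alone in passing the threshold. It encodes aldolase C, the isozyme of brain, which splits fructose 1,6-bisphosphate as its relative aldolase A does. Its signal was 47.2, 41.1 and 34.5 in controls and 67.2, 64.8 and 63.1 with the KIAA1718 shRNA. Every array with the KIAA1718 shRNA lay above every control, and the spread was narrower there (SD 2.09 against 6.33, n = 3). The log2 difference was 0.51 ± 0.13 (SE), an interval of 0.23 to 0.80, with an adjusted p of 0.0499 in limma, at the edge of the threshold. The call was lost in 10 of 16 alternative settings, and over all 16 the difference stayed between 0.30 and 0.67. Those losses came without control replicates 2 (adjusted p = 0.110) or 3 (0.191), without replicates 1 (0.121), 2 (0.111) or 3 (0.131) of the KIAA1718 shRNA, and with the fibroblast mean as a covariate, where the difference was 0.39 (adjusted p = 0.309), among others.

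**Figure D2:**
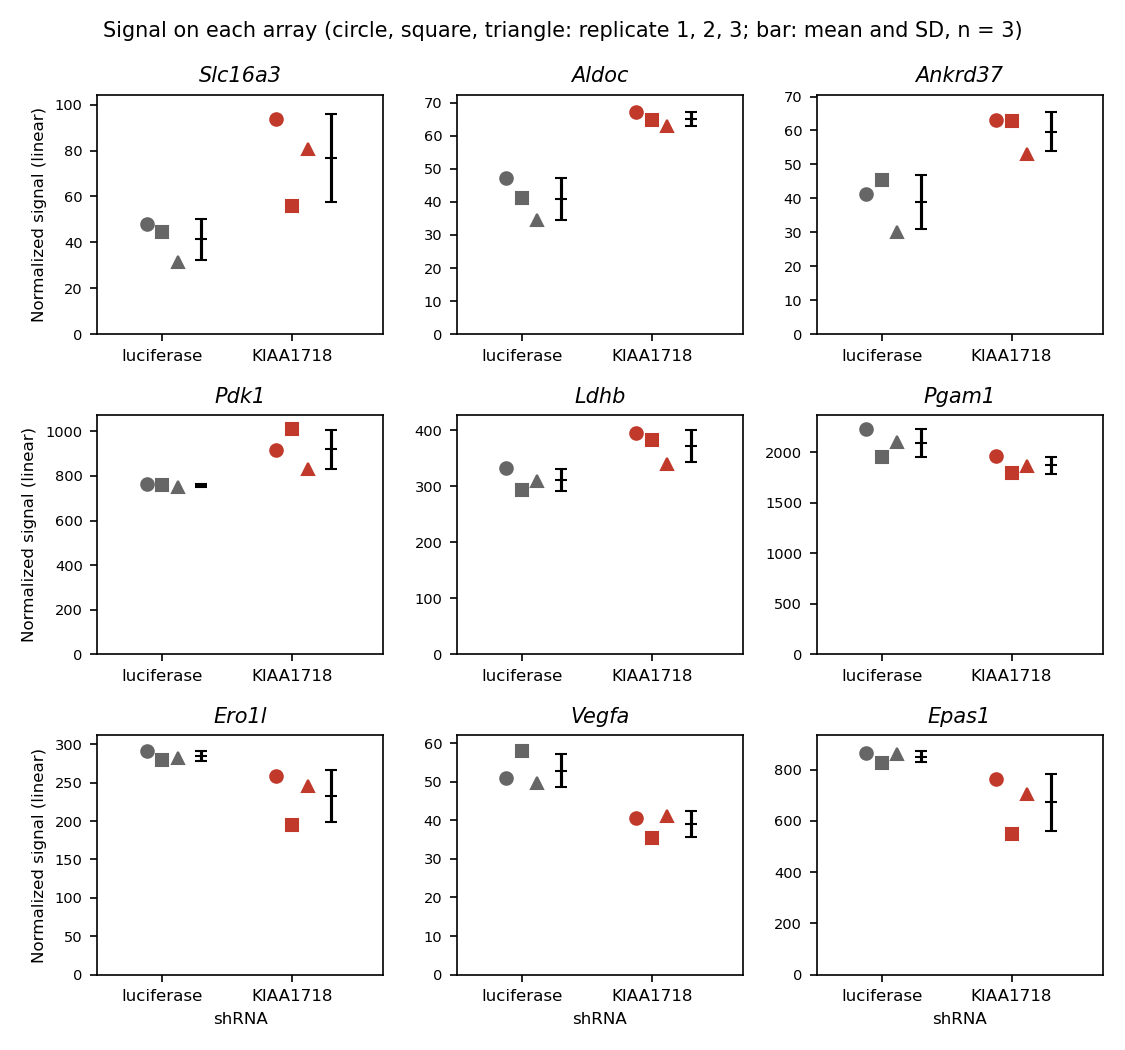
Normalized signal (y axis, linear, from 0) on each array for the 9 genes of the set whose 95% interval excluded 0, by shRNA (x axis). Symbols are replicates 1, 2 and 3 and bars the mean and SD (n = 3); the groups are apart in every panel but that of Pgam1, where a control at 1953 lies below an array of the KIAA1718 shRNA at 1958.

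The steps before aldolase showed no change that passed. The hexokinase genes Hk1 and Hk2, whose products trap glucose in the cell, differed by -0.11 and -0.10. A dimmer probe set of Hk1 gave 37.2 in controls and 21.9 with the KIAA1718 shRNA without overlap, a difference of -0.50 (limma adjusted p = 0.0723), so the probe sets of Hk1 differ in size. The 3 phosphofructokinase genes, which encode the committed step, lay near 0: Pfkl at 0.02, Pfkm at 0.10 and Pfkp at -0.01. Their intervals ran from -0.27 at the lowest to 0.40 at the highest. Pfkp was at 0.13 with unscaled signals, under which the median of all genes was 0.11.

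Aldoa, the ubiquitous aldolase gene, gave signals of 1382, 1478 and 1324 in controls and 1466, 1225 and 1203 with the KIAA1718 shRNA. Its groups overlapped, and the difference was -0.11 (adjusted p = 0.555). Of its 5 probe sets, 4 lay below 0, from -0.23 to -0.11, and the remaining one was at 0.01. Tpi1, the triose phosphate isomerase gene, differed by 0.15 with overlapping groups.

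The enzymes of the second phase of glycolysis are those by which ATP is made. Gapdh could be read from the control probe sets alone, which were normalized with the rest and not tested in limma. The middle one gave 3341, 3170 and 3289 in controls and 3108, 3311 and 3437 with the KIAA1718 shRNA, which overlapped. Its 3 probe sets differed by -0.00722, 0.00966 and 0.0072 (exact permutation p from 0.8 to 0.9, two-sided, n = 3; 0.1 is the smallest p this design allows).

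Pgk1, the phosphoglycerate kinase gene, had a signal of 1772 ± 43.4 in controls and 1949.8 ± 111 with the KIAA1718 shRNA (SD, n = 3). The groups did not overlap, but the difference of 0.14 did not pass (adjusted p = 0.275). Pgam1, the phosphoglycerate mutase gene, had signals of 2227, 1953 and 2095 in controls and 1958, 1791 and 1858 with the KIAA1718 shRNA, overlapping by a small margin at a difference of -0.16 (adjusted p = 0.223). Pkm, which encodes pyruvate kinase, differed by -0.15 (adjusted p = 0.339); its highest array with the KIAA1718 shRNA, 1936, was just below the lowest control, 1951. Eno2, the neuronal enolase gene, gave signals of only 1.86 to 13.9 and an interval of -0.34 to 0.47.

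Lactate dehydrogenase joins glycolysis to lactate. Ldha, whose product favours lactate formation, gave 2024, 1948 and 1827 in controls and 1963, 2007 and 1932 with the KIAA1718 shRNA. Its groups overlapped, and the interval of the difference was -0.11 to 0.16. Ldhb, whose product favours pyruvate, gave 332, 292 and 310.0 in controls and 395, 382 and 339.7 with the KIAA1718 shRNA, with no overlap. The difference of 0.24 did not pass (adjusted p = 0.217), and all 4 of its probe sets were apart between groups at differences of 0.23 to 0.37 without any passing.

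The regulators set how active pyruvate dehydrogenase is and how fast phosphofructokinase runs. Pdk1, a kinase gene whose product shuts pyruvate dehydrogenase down and a classical HIF target, gave 763, 760.1 and 750.1 in controls and 917, 1008 and 831 with the KIAA1718 shRNA. The groups did not overlap, and the difference of 0.27, with an interval of 0.08 to 0.45, did not pass (adjusted p = 0.109). It rested on the brightest probe set: the other 2 tested ones of Pdk1 differed by -0.05 and -0.03. The related kinase gene Pdk3 differed by -0.07. Pfkfb3, which encodes a maker of the phosphofructokinase activator fructose 2,6-bisphosphate, differed by 0.14 at signals of 11.8 to 20.7.

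Related genes that serve the same step were set against each other within each array, and the shift of their difference between groups was read. A probe set's level cannot be compared with another's. The size of a shift also depends on the pseudocount where 1 gene of the pair is dim, as Aldoc and Slc16a3 are. Of 13 pairs listed, 11 were measured, and 4 had within-array differences that did not overlap between groups: Slc16a1 against Slc16a3, Aldoa against Aldoc, Ldha against Ldhb, and Pdk1 against Pdk3. Each of these pairs holds a gene whose own groups were apart: Slc16a3, Aldoc, Ldhb and Pdk1. Of all single genes 27.9% had groups apart, and no such share was taken over pairs of other genes. Aldoa minus Aldoc was 4.47, 4.71 and 4.73 (log2) in controls and 4.15, 3.94 and 3.95 with the KIAA1718 shRNA, a shift of -0.62 toward Aldoc. Ldha minus Ldhb was 2.55, 2.67 and 2.50 in controls and 2.27, 2.35 and 2.45 with the KIAA1718 shRNA, a shift of -0.22 toward Ldhb. Slc16a1 minus Slc16a3 shifted by -0.51 and Pdk1 minus Pdk3 by 0.34. Each had an exact permutation p of 0.1 (two-sided, n = 3), the smallest the design allows, and 0.275 after Benjamini-Hochberg adjustment over the 11 pairs, so none can pass here. With a pseudocount of 64 the shifts were -0.40 for Aldoa and Aldoc and -0.25 for Slc16a1 and Slc16a3, and with all probe sets of a gene averaged that of Pdk1 and Pdk3 was 0.13. Under each of these settings 3 pairs did not overlap. With a pseudocount of 1 the shift was -0.77 for Aldoa and Aldoc and -0.69 for Slc16a1 and Slc16a3, and 4 pairs did not overlap. The pairs of hexokinases, phosphofructokinases, glucose transporters and Egln hydroxylases overlapped between groups. So did Hif1a minus Epas1, at a shift of 0.30 (exact permutation p = 0.3, two-sided), though the groups of Epas1 itself were apart.

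**Figure D3:**
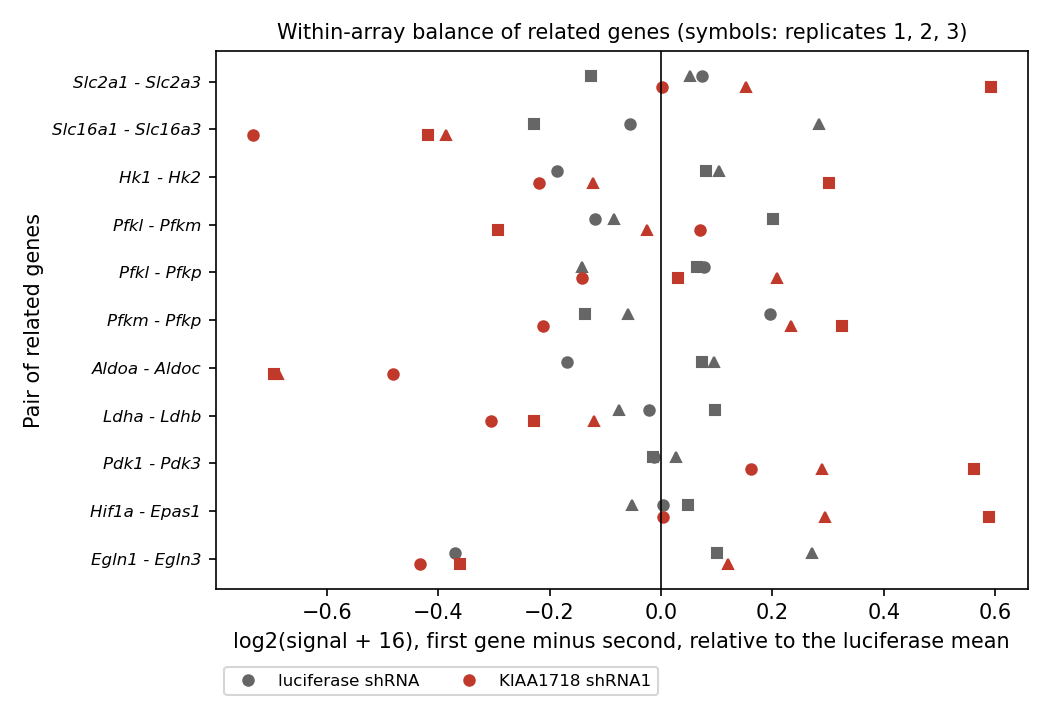
Within-array log2(signal + 16) difference between the genes of each of 11 pairs, relative to the mean of the luciferase controls (x axis; y axis, pairs). Each symbol is 1 array (replicates 1, 2 and 3); the arrays of the KIAA1718 shRNA are all on one side of the controls for 4 pairs, at shifts of -0.62 for Aldoa and Aldoc, -0.51 for Slc16a1 and Slc16a3, -0.22 for Ldha and Ldhb and 0.34 for Pdk1 and Pdk3.

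None of the 5 genes of oxygen sensing passed. Hif1a, which encodes the main oxygen-regulated subunit, gave 1079, 1063 and 1032 in controls and 952, 1038 and 1078 with the KIAA1718 shRNA, with overlapping groups and a difference of -0.05 (interval -0.21 to 0.11). HIF is governed mainly through the stability of the protein, which these arrays do not measure. Epas1, the gene of the related subunit HIF-2 alpha, gave 865, 826 and 862 in controls and 763, 549.7 and 704 with the KIAA1718 shRNA, all below every control. The difference was -0.35 ± 0.11 (SE); its adjusted p was 0.112, and the replicate block lowered it to 0.0451. A dimmer probe set of Epas1 differed by -0.07.

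Arnt, the gene of the shared partner subunit, differed by -0.17 with an interval of -0.63 to 0.29, since 1 control array was high at 164 against 107 and 74.8 on the other controls. The hydroxylase genes Egln1 and Egln3 differed by 0.01 and 0.23, both with overlapping groups. A dimmer probe set of Egln3 lay on the other side of 0, at -0.21 with groups apart (26.6 in controls and 20.7 with the KIAA1718 shRNA, adjusted p = 0.408). Egln3, itself a HIF target, had 1 high array with the KIAA1718 shRNA, at 138 against 81.2 and 79.3.

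The other hypoxia targets did not move one way. Of 9 tested none passed, 4 lay above 0 and 5 below. Their median was -0.17, against 0.024 for the 14 enzymes and 0.00106 for all genes. That median was the value of Car9, a dim gene at signals of 6.84 to 11.9. Without 1 array the median of the targets was -0.16 to -0.11. Ankrd37, an ankyrin repeat gene induced by hypoxia, stood highest, at 41.4, 45.5 and 30.1 in controls and 63.2, 62.6 and 53.1 with the KIAA1718 shRNA. All its arrays with the KIAA1718 shRNA were above every control. The difference was 0.47 ± 0.14 (SE), with an adjusted p of 0.0966 that the replicate block lowered to 0.0497.

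Vegfa, the gene of the growth factor that drives vessel growth, was the lowest of the targets, at 51.1, 57.9 and 49.8 in controls and 40.7, 35.3 and 41.2 with the KIAA1718 shRNA. The groups did not overlap, and the difference of -0.32 did not pass (adjusted p = 0.182). Ero1l, the gene of an oxidase that helps form disulfide bonds in the endoplasmic reticulum, gave 292, 279 and 283 in controls and 258, 195 and 246 with the KIAA1718 shRNA, also apart, at -0.28 (adjusted p = 0.223). P4ha1, a collagen prolyl hydroxylase gene, was apart between groups at -0.21 (adjusted p = 0.421). Mxi1, a Myc antagonist gene, differed by -0.24 with overlap.

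The mitophagy receptor gene Bnip3 differed by 0.16, with 1 high array of the KIAA1718 shRNA at 179.7 against 113 and 118. Ndrg1, a stress-induced gene, differed by 0.11, and its further probe sets lay higher, up to 0.50 (adjusted p = 0.0910) at signals of 18.7 and 33.6. Higd1a, a gene of respiratory chain assembly, differed by 0.10. Car9, the gene of a carbonic anhydrase that acidifies the surroundings of hypoxic cells, gave signals of only 6.84 to 11.9 on all arrays, with a difference of -0.17 (interval -0.45 to 0.11). Over the set, 40 further probe sets of 21 genes were tested, none of them passed (3.69% of all probe sets did, 1.95% higher and 1.74% lower), and 30 had the sign of the brightest one.

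**Figure D4:**
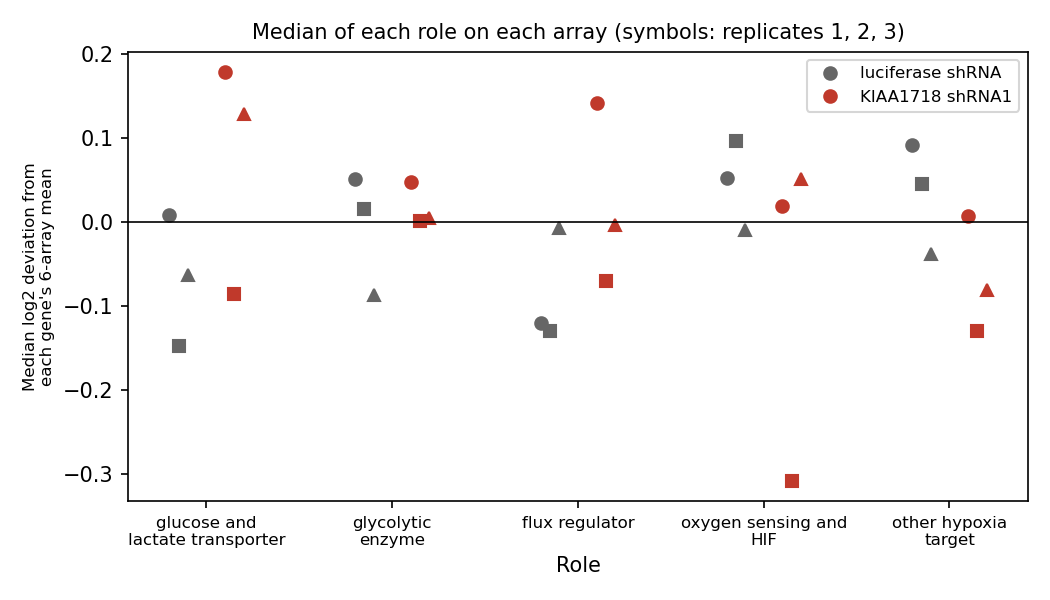
Median, over the genes of each role (x axis), of the log2 deviation from each gene's mean over 6 arrays (y axis); each symbol is 1 array (replicates 1, 2 and 3). The groups overlap in every role, and replicate 2 of the KIAA1718 shRNA is lowest for oxygen sensing, at -0.31.

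Across arrays, the medians of the roles overlapped between the groups. For the enzymes the median deviation was 0.05, 0.02 and -0.09 on control replicates 1, 2 and 3 and 0.05, 0.00132 and 0.00572 with the KIAA1718 shRNA. For the other hypoxia targets it was 0.09, 0.05 and -0.04 in controls and 0.00778, -0.13 and -0.08 with the KIAA1718 shRNA.

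Further genes of these pathways were counted by list, against the 4.85% of all genes that passed. Of 28 other genes of glycolysis and pyruvate metabolism tested none passed, and the smallest p belonged to Pdk4, a further pyruvate dehydrogenase kinase gene, at -0.48 (adjusted p = 0.0626), and Pck2, the mitochondrial phosphoenolpyruvate carboxykinase gene, at -0.44 (adjusted p = 0.0780). Pdk4 thus lay on the other side of 0 from Pdk1; its signal was 31.5, 38.1 and 29.8 in controls and 20.0, 19.2 and 18.1 with the KIAA1718 shRNA. Of 14 other HIF regulators none passed, with Egln2 at -0.22 and Cul2, a subunit gene of the VHL ligase, at -0.17 nearest (adjusted p of 0.272 and 0.335).

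Branches off glycolysis held 1 called gene of 21, a share near that of all genes. Gys1, the glycogen synthase gene, fell from 58.6 ± 9.55 in controls to 28.2 ± 9.84 with the KIAA1718 shRNA (SD, n = 3), with no overlap. The log2 difference was -0.77 ± 0.18 (SE, limma adjusted p = 0.0362). The call was lost in 9 of 16 alternatives, and over all 16 the difference ran from -1.08 to -0.41. Pgls, a gene of the pentose phosphate pathway, differed by -0.42 (adjusted p = 0.0647), and the replicate block lowered that p to 0.0318. Of 34 further hypoxia targets 1 passed. Ddit4, which encodes REDD1, an inhibitor of the growth kinase mTOR, rose from 284, 265 and 232 to 525, 364 and 356. Its difference was 0.62 ± 0.14 (SE, limma adjusted p = 0.0398). The call was lost in 8 of 16 alternatives, and over all 16 the difference ran from 0.43 to 0.76. Edn1, the endothelin gene, differed by 0.45 (adjusted p = 0.0882) at a control signal of 15.2. The medians of these 4 lists were -0.069, -0.11, 0.00067 and 0.027, in the order given, beside 0.00106 for all genes.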

How the data were processed

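RNA was measured on 6 arrays, 3 per group; sample titles give groups and replicate numbers. The authors deposited a linear signal intensity for each probe set. Per the submitters' processing notes the software was GCOS; for its version and settings, "not given in the sources used here" applies. Intensities were quantile-normalized between arrays and increased by a pseudocount of 16 before log2, so differences understate the change of dim genes. Signals quoted are normalized ones. Control probe sets (64) and the dimmest 40% of the others were dropped, leaving 27022 of 45037. These were fitted in limma 3.58.1 under R 4.3.3 (lmFit; eBayes, trend on), two-sided; p-values were adjusted by Benjamini-Hochberg over all of them at a threshold of 0.05, and every adjusted p of a gene is from limma. The steps were tested on simulated data. A single gene symbol was listed for 34945 probe sets, several for 932, and 9160 have no name here; Entrez numbers linked them to current RefSeq symbols (GRCm38.p6). RefSeq promoter windows of that build covered 35 of the 39 genes.

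The members and lists were chosen with earlier results of these data known. All 39 genes are named. From each further list of glycolysis and hypoxia genes at most 4 that passed are named, ranked by size. If fewer than 2 passed, the 2 of smallest p are named. The marker lists were given as counts and means, and the genes named from them were not picked by this rule. The groups share replicate numbers. Correlations of the arrays' deviations from their group's mean were 0.202, 0.124 and 0.129 between equal numbers and -0.15 to 0.025 between unequal ones. The former exceed 0.1, but no label says what a number marks. A pairing of the arrays by number thus rests on these same data alone. The fit without a block is the main one, and the fit with the block is an alternative.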

Additional observations from a re-analysis of the deposited data

How the results depend on the processing

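The count of changed members was 1, and it was 0 with a pseudocount of 1, with no filter, with eBayes without a trend or with the fibroblast mean as a covariate. It was 2 with the 60% dimmest probe sets left out and 3 with the mean of all tested probe sets of a gene. With replicate number as a block it was 4. The shares of all genes that passed under these settings were 6.91%, 7.37% and 7.85%. Among the members and the 8 genes named from the further lists, the block changed the calls of Slc16a3, Ankrd37, Epas1 and Pgls and no others; marker genes were not compared one by one. Without 1 array the count was 0 to 1, and it was 0 without replicates 2 or 3 of the controls or 1 or 3 of the KIAA1718 shRNA. A count of 1 did not always mean Aldoc. With unscaled values the count was 1, but Slc16a3 passed (limma adjusted p = 0.0247) and Aldoc did not (0.0687). Without replicate 2 of the KIAA1718 shRNA, too, the member that passed was Slc16a3 and not Aldoc. Of all genes tested 618 passed, 340 of them higher, against 298 higher of 367 with unscaled values. That total was 197 of 18193 genes (1.08%) with no filter and 670 of 9701 (6.91%) with the 60% dimmest left out. Of 12740 genes it was 529 (4.15%) with a pseudocount of 1, 939 with probe sets averaged and 1000 with the block. Without a trend it was 388 (3.05%), and with the fibroblast covariate 132 (1.04%). It was 290 or 162 without control replicates 2 or 3, and 403, 332 or 204 without replicates 1, 2 or 3 of the KIAA1718 shRNA. The cause of these shifts was not tested.

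With unscaled values the median of all genes was itself 0.11. The median of the enzymes was 0.13 with unscaled values and -0.034 to 0.054 without 1 array. The median of the other hypoxia targets was -0.095 with unscaled values, -0.25 and -0.059 with pseudocounts of 1 and 64, -0.052 with the 60% dimmest left out, and -0.16 to -0.11 without 1 array. That of the flux regulators was 0.27 with a pseudocount of 1, 0.056 with one of 64, 0.063 with probe sets averaged and 0.072 to 0.22 without 1 array, that of the transporters 0.093 to 0.19 and that of oxygen sensing -0.11 to 0.059, the last also 0.052 with unscaled values. Pairs that did not overlap numbered 3 with a pseudocount of 64 or with probe sets averaged. Without 1 array they numbered 4 to 7, with 7 without replicate 1 of the KIAA1718 shRNA. Groups with an array left out are more easily apart, so the counts without 1 array cannot be set against that of the main fit.

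In 33 of 557 alternative values a member changed sign, over 18 genes, and none of these values passed the threshold. With unscaled values, under which the median of all genes was 0.11, these were Hk1 at 0.0071, Hk2 at 0.031, Pfkp at 0.13, Pdk3 at 0.070, Hif1a at 0.052. With scaling to a trimmed mean they were Pfkp at 0.0031, Ldha at -0.022, and with all probe sets averaged Slc2a1 at -0.014, Pfkp at 0.098. With the fibroblast covariate they were Pfkl at -0.063, Pfkm at -0.047, Tpi1 at -0.062, Ldha at -0.022, Egln3 at -0.082, Bnip3 at -0.017, Ndrg1 at -0.067. The other 17, in 11 genes, came without 1 array, over which the ranges were Pfkp -0.11 to 0.068, Eno2 -0.14 to 0.23, Egln1 -0.11 to 0.18, Arnt -0.41 to 0.084, Pfkl -0.093 to 0.082, Ldha -0.013 to 0.061, Bnip3 -0.026 to 0.27, Ndrg1 -0.022 to 0.20, Slc2a3 -0.31 to 0.0068, Hk2 -0.19 to 0.060, Higd1a -0.017 to 0.19. Among pairs, Hk1 and Hk2 were at 0.0088 with a pseudocount of 64, and with probe sets averaged Pfkl and Pfkp were at -0.075 and Egln1 and Egln3 at 0.020. Without 1 array the ranges of pairs that changed sign were Hk1 and Hk2 -0.17 to 0.089, Pfkl and Pfkm -0.16 to 0.019, Pfkl and Pfkp -0.055 to 0.12. With 3 arrays a group, the number of arrays limits the precision.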
